A study of Mus musculus with 10 samples.

Results

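The genes described here are the ubiquitin-conjugating enzymes (E2s), the cullins and the 2 large classes of substrate adaptors that cullins carry, in mouse morulae made with or without Mettl3. They were chosen by name: every gene of the deposited tables whose symbol begins with Ube2, or with Cul, Klhl, Fbxo, Fbxl or Fbxw followed by a digit. That rule finds 160 of the 24411 genes listed, made up of 37 Ube2, 8 Cul, 37 Klhl, 37 Fbxo, 19 Fbxl and 22 Fbxw genes. A name is not always a function: Ube2cbp is annotated as a ubiquitin ligase that binds an E2 and not as an E2, and Fbxl12os is an antisense RNA. Each of the 10 libraries held RNA of 10 morulae, the stage just before the blastocyst. Superovulated oocytes were fertilized in vitro, and zygotes were injected 3 to 6 h after insemination with an antisense oligonucleotide (ASO), a short synthetic strand that binds a chosen transcript. In the group ASO-Control (5 libraries) the oligonucleotide had no target, and in the group Mettl3-ASO (5 libraries) it was directed at Mettl3. Embryos of both groups then grew in KSOM medium to 72 h. Replicates 3 to 5 of both groups carry the label batch 2, and replicates 1 and 2 carry no batch label and are called untagged. The labels name the strain, ICR, for the untagged libraries only. Nothing in them says that different libraries came from different fertilizations, so a p-value here reflects the variation among these libraries, part of which may be technical.

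Ubiquitin is a small protein that marks other proteins for destruction by the proteasome or for a change of place or partner. An E1 enzyme activates it, an E2 carries it, and an E3 ligase places it on the substrate. The largest group of E3s is built on cullins, scaffolds that hold an E2 at one end through a RING protein and a substrate adaptor at the other. Cul1 takes F-box proteins (Fbxo, Fbxl and Fbxw, named by their other domains) through Skp1, and Cul3 takes BTB-Kelch proteins (Klhl). Cul2 and Cul5 take their receptors through elongins, and Cul4a and Cul4b through Ddb1. Attachment of the ubiquitin-like protein Nedd8 switches a cullin on, and the COP9 signalosome takes it off. In the early embryo this machinery clears maternal proteins and times cell division. Mettl3 is the active subunit of the complex that methylates adenosine in messenger RNA, most often in a sequence such as GGACT and near stop codons.

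The libraries held 9905830 to 13530284 counts in the 4 untagged and 21412857 to 32327283 in the 6 batch 2 libraries. Levels are in FPKM, a count of fragments scaled to transcript length and library size, so that levels of different genes can be compared. Mettl3 was at 6.58 to 12.68 FPKM in ASO-Control and at most 0.04 in Mettl3-ASO, with 1681 counts against 3 in all (log2 fold change −8.72, adjusted p = 6.6e-08; exact permutation p = 0.0167, two-sided, the smallest that 120 relabellings within batches allow). Those relabellings did not treat libraries with the same replicate number as pairs. Summed over a fixed list of marker genes, transcripts of the two-cell stage reached 208 to 263 FPKM in ASO-Control and 1504 to 4356 in Mettl3-ASO, over 20 genes. Eif1a made up most of the control sum, at 203 to 244 FPKM in ASO-Control and 162 to 236 in Mettl3-ASO. Single genes of the list differed among the Mettl3-ASO libraries. Zscan4c was at 0.36 and 0.31 FPKM in Mettl3-ASO replicates 3 and 5 and at 50.5 to 110 in the rest of that group. Tcstv3 was at 594 and 1574 FPKM in the same replicates 3 and 5. Trophectoderm markers (13 genes) summed to 595 to 1565 against 144 to 520 FPKM. Within them Epcam was at 227 to 451 FPKM in ASO-Control and 15.5 to 79.2 in Mettl3-ASO. Hand1 went the other way, at 4.33 to 8.97 and 20.4 to 45.8, and Tead4 was at 9.76 to 15.4 and 11.0 to 20.3. Inner cell mass markers (9 genes) summed to 197 to 410 against 336 to 785 FPKM. Among these, Nanog was at 48.2 to 141 FPKM in ASO-Control and 136 to 454 in Mettl3-ASO and Sall4 at 54.0 to 72.4 and 92.7 to 122. Pou5f1 was at 48.5 to 120 and 36.9 to 108 and Utf1 at 27.1 to 54.2 and 21.8 to 41.9. Oocyte markers (14 genes, of which the members Fbxw15 and Fbxw28 are 2) summed to 38.6 to 59.5 and 37.8 to 74.2 FPKM. Ooep made up most of the control sum, at 31.47 to 53.03 FPKM in ASO-Control and 17.08 to 55.16 in Mettl3-ASO. Zp3 was higher in Mettl3-ASO without overlap, at 1.12 to 2.81 and 5.2 to 8.72 FPKM. So were Npm2, at 0.96 to 2.26 and 3.5 to 5.75, and Oosp1, at 0.22 to 0.92 and 1.15 to 8.28. The ranges of the other oocyte markers overlapped. Markers of cumulus and granulosa cells (10 genes) stayed at 1.63 to 3.90 and 2.77 to 6.51 FPKM, with Amh, Has2, Inhba and Cyp19a1 at 0 in every library, and sperm markers (7 genes) at 0.51 to 2.22 and 0.25 to 3.04 FPKM, with Smcp and Akap4 at 0. The part that the shift in stage and lineage markers plays in the changes below was not tested. Each library is a pool of whole embryos, in which fewer cells of a type and less RNA per cell cannot be told apart. Mettl3-ASO replicate 1 stood apart from its group for several members, and results that depend on it are given with and without it.

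Among the members, 3 pairs lie within 100000 bases of each other, and in 2 of those pairs both genes were called in the same direction. Ube2q2 (chr9:55148854-55207529, plus strand, GRCm38) and Fbxo22 (chr9:55208925-55224433, plus strand) follow each other with 1395 bases between them, and both fell about 4-fold. Klhl10 (chr11:100441917-100457022, plus strand) and Klhl11 (chr11:100462614-100472741, minus strand) face each other with their ends 5591 bases apart, and both rose. Their promoters are shown because these are the member pairs that moved together: 250 bases before to 50 bases after a start site listed by RefSeq (GRCm38.p6), read 5′ to 3′ on the strand of the gene. Capitals mark a GC box, GGGCGG or its reverse complement CCGCCC. The windows are chr9:55149119-55149418 for Ube2q2, chr9:55208685-55208984 for Fbxo22, chr11:100441674-100441973 for Klhl10 and chr11:100472733-100473032 for Klhl11.
Ube2q2: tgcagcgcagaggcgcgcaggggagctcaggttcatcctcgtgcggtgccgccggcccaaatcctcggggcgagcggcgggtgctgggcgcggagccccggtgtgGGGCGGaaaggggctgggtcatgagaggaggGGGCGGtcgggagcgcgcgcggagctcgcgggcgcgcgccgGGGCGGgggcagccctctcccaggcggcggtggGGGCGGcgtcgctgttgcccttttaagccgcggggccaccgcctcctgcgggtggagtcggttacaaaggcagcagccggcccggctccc
Fbxo22: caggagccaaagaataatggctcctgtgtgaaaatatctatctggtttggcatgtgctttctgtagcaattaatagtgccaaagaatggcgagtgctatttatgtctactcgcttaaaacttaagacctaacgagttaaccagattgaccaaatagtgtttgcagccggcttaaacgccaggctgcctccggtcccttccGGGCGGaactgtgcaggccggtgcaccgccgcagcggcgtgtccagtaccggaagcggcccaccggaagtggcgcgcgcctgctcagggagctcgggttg
Klhl10: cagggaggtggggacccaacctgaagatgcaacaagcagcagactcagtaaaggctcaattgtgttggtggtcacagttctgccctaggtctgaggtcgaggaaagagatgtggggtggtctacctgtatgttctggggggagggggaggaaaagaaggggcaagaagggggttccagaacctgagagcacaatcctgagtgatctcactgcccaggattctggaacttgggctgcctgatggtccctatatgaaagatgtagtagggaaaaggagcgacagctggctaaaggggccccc
Klhl11: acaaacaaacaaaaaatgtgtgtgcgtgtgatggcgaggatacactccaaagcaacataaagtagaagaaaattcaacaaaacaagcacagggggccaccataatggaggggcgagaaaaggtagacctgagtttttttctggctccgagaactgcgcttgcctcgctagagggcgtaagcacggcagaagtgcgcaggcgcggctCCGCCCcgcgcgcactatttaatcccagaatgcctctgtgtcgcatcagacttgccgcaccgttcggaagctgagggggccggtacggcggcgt
The Ube2q2 window holds 4 GC boxes and 40 CpG dinucleotides, and that of Fbxo22 1 GC box and 20 CpG. The Klhl11 window holds 1 GC box and 23 CpG, while that of Klhl10 has none of the GC box and 2 CpG. None of the 4 holds CCAAT or TATAAA on either strand. In the whole RefSeq table of 32851 promoters of this length, 35.66% hold the GC box, 37.41% CCAAT and 13.62% TATAAA. A promoter was listed for 126 of the 160 members, of which 61.9% hold a GC box, 25.4% CCAAT and 6.35% TATAAA, and their median CpG number was 20 against 7 over the table. By outcome, among members with a listed promoter, the GC box stood in 80.8% of 26 that rose, 71.4% of 14 that fell, 65.6% of 32 not called and 48.1% of 54 not tested. Shares by outcome over all tested genes were not computed, so these do not show a trait particular to the members.

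Since Mettl3 writes its mark in sequences such as GGACT, that motif was sought in the transcripts, in the sense direction, using the GENCODE annotation (vM21). Below are 4 of the sites found, picked from those near the stop codon, for a member that fell and 3 that rose. The motif is in capitals, with 10 bases on each side. These sites lie within 200 bases of the last coding base: 187 bases after it in Ube2q2, 141 after it in Klhl21, 62 after it in Klhl11 and 148 before it in Fbxl5.
Ube2q2 site: taggtatcttGGACTgagcagtggg
Klhl21 site: cagcttctggGGACTaaataaggtg
Klhl11 site: ggggatgcctGGACTgttacttgga
Fbxl5 site: aaagcattaaGGACTacattgccca
Of the 92 members tested below, 49 (53.3%) had a GGACT within 200 bases of the stop codon, against 39.5% of 9144 tested genes with an annotated coding transcript. The members' transcripts are longer (median 3364.5 against 2641.5 bases), and the median density was 1.06 against 1.02 sites per kilobase. Of the members that rose, 19 of 35 had such a site, of those that fell 5 of 14, and of those not called 25 of 43. Over all tested genes the shares were 40.6% of those that rose, 38.5% of those that fell and 39.5% of those not called. Other strongly changed members had no site that near. In the annotated transcript used, the nearest GGACT lay 380 bases before the last coding base in Fbxo22. For Fbxo34 it lay 2201 bases after it. The coding stretch annotated in that Fbxo34 transcript covers only bases 1 to 135 of 3490, so the distance may not hold for its other transcripts. The transcript of Ube2e1 held none. A match is a description of the sequence, and methylation was not measured here.

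The 2 groups were compared with edgeR's quasi-likelihood test over 9522 genes with a mean of at least 1 FPKM over the 10 libraries, and a gene was called at an adjusted p under 0.05. Of the 160 members, 92 passed that filter (34 Ube2, 6 Cul, 14 Klhl, 25 Fbxo, 7 Fbxl and 6 Fbxw) and 68 did not. Of the 92, 49 were called, or 53.3%, where 49.4% of all tested genes were called. The members that rose were 35 (38.0%, against 25.4% of all tested genes) and those that fell were 14 (15.2%, against 24.0%). At least 2-fold rises were seen in 17 members, a change found in 13.4% of all tested genes, and at least 2-fold falls in 6, found in 8.67%. The FPKM of the groups did not overlap in 24 members, 18 of them higher in Mettl3-ASO (15.0% of all tested genes) and 6 lower (10.6%), or 25.6% of all tested genes in either direction. The median log2 fold change was 0.14 over the tested members and 0.01 over all tested genes. The split was uneven by class. Of 14 tested Klhl genes 11 rose and none fell (median 0.99). Of 38 tested F-box genes 14 rose and 5 fell (median 0.24), of 34 Ube2 genes 8 rose and 9 fell (median −0.11), and of 6 cullins 2 rose and none fell (median −0.21). In 4 members the mean of 1 group was under 1 FPKM, so that they passed the filter through the other group: Klhl25, Klhl42 and Fbxo47 through Mettl3-ASO and Ube2e2 through ASO-Control. Such genes had to differ to be tested, and without them 32 of 88 members rose and 13 fell. Among the Klhl genes 9 of 12 rose without them. The 2-fold and non-overlap counts above still include such members, and the shares over all tested genes were not recomputed without genes of this kind. Without Mettl3-ASO replicate 1, 37 members rose and 16 fell.

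**Figure D1:**
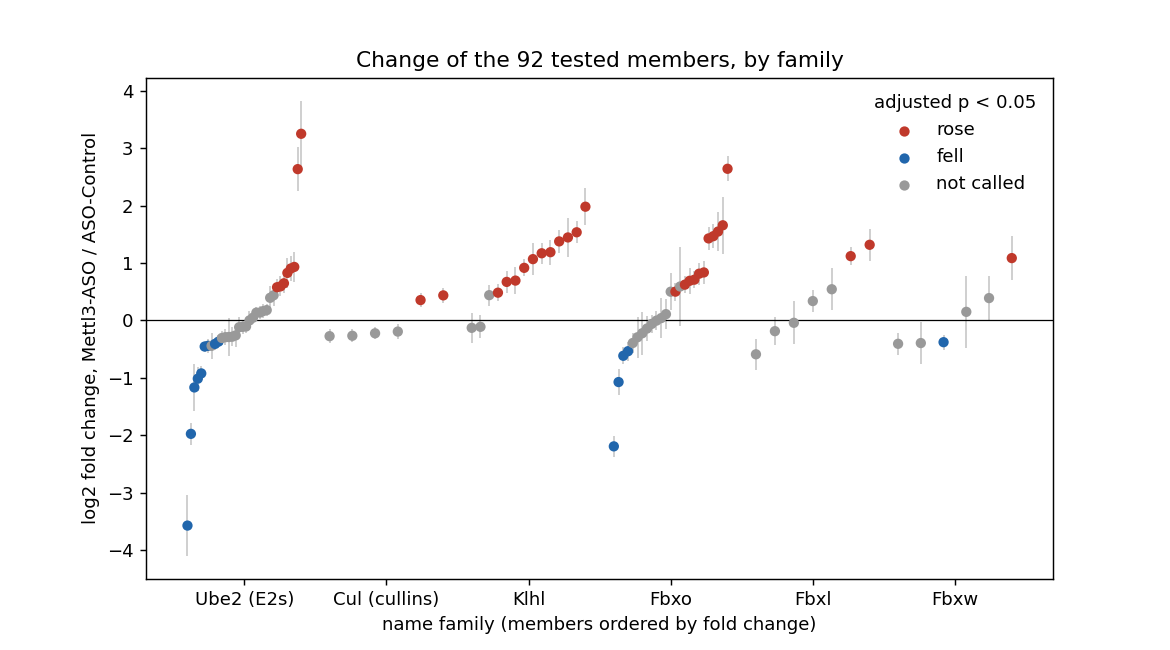
Log2 fold change of Mettl3-ASO over ASO-Control (y axis) for the 92 tested members, grouped by name family and ordered within it (x axis). Points are the fitted values, bars the standard error, red points rose, blue fell and grey were not called. The 11 called Klhl genes all lie above 0, and the Ube2 genes run from −3.58 (Ube2e2) to 3.25 (Ube2dnl1).

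The E2s made up most of the members' RNA. The 37 Ube2 genes together held 4152 to 4366 FPKM in the ASO-Control libraries and 3903 to 4053 in the Mettl3-ASO libraries, while the 37 Klhl genes held 51.0 to 73.5 and 107 to 131. Over the tested members, the median level in ASO-Control was 47.9 FPKM for Ube2 genes, 66.1 for cullins, 6.07 for Fbxo, 4.46 for Fbxl, 3.01 for Fbxw and 2.60 for Klhl genes.

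Among the E2s that fell, Ube2q2, an E2 with a long amino-terminal extension, went from 146 ± 22.2 to 38.8 ± 15.2 FPKM (SD, n = 5). Its levels in replicates 1 to 5 were 175, 159, 116, 142 and 139 FPKM in ASO-Control and 62.3, 25.1, 29.6, 45.5 and 31.4 in Mettl3-ASO. The highest Mettl3-ASO library, replicate 1, was still well under the lowest control, and the log2 fold change was −1.98 ± 0.19 (SE; adjusted p = 6.74e-06). Of its annotated 50-base windows 16.4% also occur in Gm4895, so its reads could be shared with that gene.

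Ube2e2 belongs to a small subfamily, Ube2e, whose members have an extra stretch before the catalytic core. Its levels were 3.26, 2.60, 4.02, 1.09 and 1.54 FPKM in ASO-Control and 0.51, 0.34, 0.19, 0.10 and 0.08 in Mettl3-ASO. Every Mettl3-ASO library was lower than every control, and Ube2e2 fell by 3.58 ± 0.53 on the log2 scale (adjusted p = 1.52e-04). That fold rests on 312 counts in ASO-Control and 23 in Mettl3-ASO, with 2 in the lowest library, so its size is uncertain. The related Ube2e1 fell by 1.01 ± 0.21 (adjusted p = 0.0015), from 135 ± 33.9 to 69.7 ± 22.5 FPKM (SD, n = 5). The third of them, Ube2e3, rose by 0.93 ± 0.26 (adjusted p = 0.00977), from 138 ± 22.9 to 268 ± 107 FPKM (SD, n = 5). The Ube2e3 libraries of Mettl3-ASO spread widely, with 173, 408, 152, 272 and 333 FPKM against 141, 167, 109, 123 and 150 in ASO-Control, and the groups overlapped at the lower end. Exons of Nkiras1 on the opposite strand cover 16.1% of Ube2e1, and reads of the pair cannot be told apart where counting ignores strand.

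Ube2h, the E2 that serves the CTLH ligase, was at 38.1, 45.0, 24.7, 21.1 and 22.4 FPKM in ASO-Control and 24.5, 17.9, 10.9, 14.2 and 11.4 in Mettl3-ASO. Untagged libraries were higher than batch 2 in both groups, so the groups overlap, but within each batch every Mettl3-ASO library was lower than every control. Ube2h fell by 0.92 ± 0.12 (adjusted p = 7.41e-05), and 44.2% of its annotated 50-base windows occur in other genes. Ube2c, Ube2d3, Ube2t and Ube2a fell by less than Ube2h. Ube2c, which starts ubiquitin chains for the anaphase-promoting complex and is the most abundant E2 here, went from 935 ± 88.1 to 726 ± 85.8 FPKM (SD, n = 5) and fell by 0.41 ± 0.10 (adjusted p = 0.00399). Ube2d3, one of the broadly used Ube2d enzymes, went from 358 ± 25.5 to 270.1 ± 17.6 FPKM (SD, n = 5) with no overlap (log2 fold change −0.46 ± 0.10, adjusted p = 0.00191). Ube2t, the E2 of the Fanconi anaemia pathway, fell by 0.44 ± 0.12 (adjusted p = 0.00881; 0.142 with no batch term). Ube2a, a mammalian form of yeast Rad6, fell by 0.37 ± 0.11 (adjusted p = 0.0153; 0.0672 with no batch term), whereas its close paralog Ube2b was not called (log2 fold change 0.14 ± 0.12, adjusted p = 0.345). Ube2l6, which conjugates the ubiquitin-like Isg15, had a fall of 1.17 ± 0.41 (adjusted p = 0.0318) that rests on few counts. That call was lost when any single one of ASO-Control replicates 1, 2, 3 and 4 or Mettl3-ASO replicate 4 was left out, with adjusted p from 0.0516 to 0.0806. Exons of Tnnc2 on the opposite strand cover 22.8% of Ube2c.

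Of the E2s that rose, the largest changes were in genes that were low in the controls. Ube2dnl1, an X-linked relative of Ube2d, was at 3.91, 12.2, 9.66, 2.81 and 5.31 FPKM in ASO-Control and 18.5, 119, 90.4, 24.2 and 68.9 in Mettl3-ASO. The groups did not overlap, although Mettl3-ASO replicates 1 and 4 were far under the other libraries of their group, and the log2 fold change was 3.25 ± 0.58 (adjusted p = 5.67e-04). Its near copy Ube2dnl2, which shares 11.7% of its windows, was under the filter with a mean of 0.308 FPKM in ASO-Control and 1.43 in Mettl3-ASO. Ube2u, a little studied E2, was at 3.33, 2.32, 1.61, 4.92 and 1.35 FPKM in ASO-Control and 12.7, 29.5, 15.1, 18.1 and 11.5 in Mettl3-ASO. Every Mettl3-ASO library exceeded every control by at least 2-fold, and Ube2u rose by 2.64 ± 0.38 (adjusted p = 1.28e-04).

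Both Ube2g genes rose. Ube2g2, which works in the removal of misfolded proteins from the endoplasmic reticulum, rose by 0.91 ± 0.22 (adjusted p = 0.00407), and Ube2g1, which lengthens chains on substrates of Cul4 ligases, by 0.65 ± 0.16 (adjusted p = 0.00545). The membrane-bound E2s of the same removal pathway were not called, Ube2j1 with a log2 fold change of 0.39 ± 0.20 (adjusted p = 0.114; 0.0493 without Mettl3-ASO replicate 5) and Ube2j2 with 0.00 ± 0.17 (adjusted p = 0.995). Ube2d1 rose by 0.59 ± 0.17 (adjusted p = 0.0133). Ube2z, which is loaded by the E1 Uba6, rose by 0.58 ± 0.15 (adjusted p = 0.00715), with 11.5 FPKM in Mettl3-ASO replicate 1 and 6.50 to 7.39 in the rest of its group. Ube2o, a large enzyme with both E2 and E3 activity, rose by 0.83 ± 0.26 (adjusted p = 0.0186). For Ube2o the fit with no batch term gave an adjusted p of 0.0588, and leaving out ASO-Control replicate 5 or Mettl3-ASO replicate 4 gave 0.0506 and 0.0507.

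The Nedd8 E2s and those of special chains that are described here were not called. Ube2m and Ube2f, which carry Nedd8, had log2 fold changes of −0.26 ± 0.20 (adjusted p = 0.288) and −0.12 ± 0.18 (adjusted p = 0.615). Ube2s, which extends the chains that Ube2c starts, had one of −0.10 ± 0.11 (adjusted p = 0.44), and Ube2l3, which serves HECT and RBR ligases, one of 0.14 ± 0.10 (adjusted p = 0.3), with 28.6% of its exon bases opposite Ydjc. Ube2n, which builds chains through lysine 63, had 0.16 ± 0.12 (adjusted p = 0.285; 0.0385 without Mettl3-ASO replicate 1). Its partners Ube2v1 and Ube2v2, which lack a catalytic cysteine, had −0.29 ± 0.14 (adjusted p = 0.0984) and −0.31 ± 0.13 (adjusted p = 0.0663). Those partners were called with the replicate number as a block (adjusted p = 0.0205 and 0.0104), and when either of 2 libraries was left out: for Ube2v1 without ASO-Control replicate 5 (0.042) or Mettl3-ASO replicate 3 (0.0405), and for Ube2v2 without ASO-Control replicate 4 (0.0171) or Mettl3-ASO replicate 5 (0.0291). Ube2v2 was also called with no filter (0.0123), and 63.5% of the windows of Ube2v1 occur in other genes. Ube2cbp was not called either (log2 fold change −0.29 ± 0.33, adjusted p = 0.49).

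Several E2s not called above changed their side of the threshold with 1 library or setting. Ube2r2, which serves F-box ligases beside Cdc34, was not called (log2 fold change −0.44 ± 0.22, adjusted p = 0.12). It was called with the replicate block (adjusted p = 0.0428), without ASO-Control replicate 2 (0.0355) and without Mettl3-ASO replicate 1 (0.0305). Ube2q1, the closest relative of Ube2q2, had 0.44 ± 0.18 (adjusted p = 0.0598), the opposite sign to Ube2q2. It was called with the block (0.0337), DESeq2 (0.0436), upper-quartile scaling (0.0438), a filter at 5 FPKM (0.0354), and without ASO-Control replicate 4 (0.0402) or Mettl3-ASO replicate 2 (0.0181). Ube2w, which marks amino termini, had −0.28 ± 0.17 (adjusted p = 0.187; 0.0225 without Mettl3-ASO replicate 2).

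**Figure D2:**
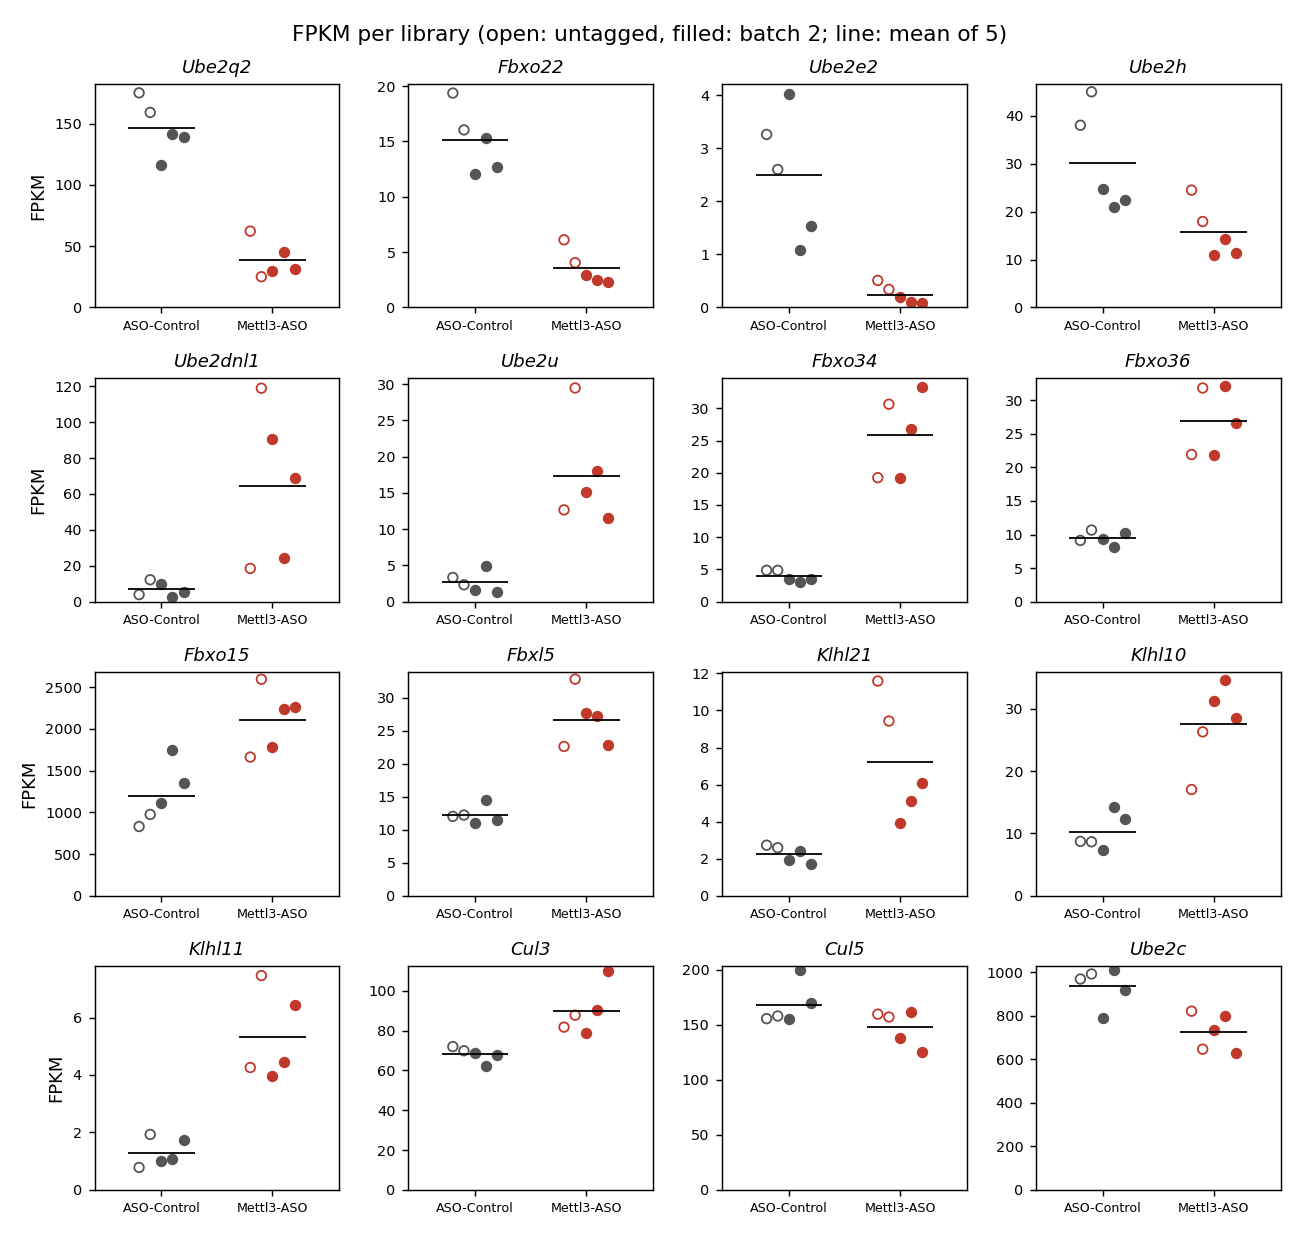
FPKM (y axis, from 0) in each library for 16 members, ASO-Control on the left in grey and Mettl3-ASO on the right in red, with open points for untagged and filled points for batch 2 libraries and a line at the mean of 5. Ube2q2, Fbxo22 and Ube2e2 are lower in every Mettl3-ASO library than in every control, Fbxo34, Fbxl5, Klhl10 and Klhl11 are higher in every one, and Cul5 and Ube2c overlap.

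Among the cullins 2 of 6 tested were called, both with small rises. Cul3, the scaffold for Klhl adaptors, was at 72.0, 69.9, 68.8, 62.2 and 67.9 FPKM in ASO-Control and 81.8, 87.8, 78.7, 90.5 and 110.1 in Mettl3-ASO. All Mettl3-ASO libraries were above all controls, by a small margin, and Cul3 rose by 0.36 ± 0.12 (adjusted p = 0.0282). The Cul3 call was lost with no filter (0.0878), with no batch term (0.0733), without ASO-Control replicate 3 (0.0548) or 4 (0.0709), and without Mettl3-ASO replicate 2 (0.0648) or 5 (0.0751). Cul4a, the rarer of the Cul4 pair, went from 7.54 ± 0.906 to 10.6 ± 1.42 FPKM (SD, n = 5) with no overlap and rose by 0.44 ± 0.13 (adjusted p = 0.0137; 0.134 with no filter). Its paralog Cul4b, at 37.2 ± 7.18 and 33.2 ± 3.80 FPKM (SD, n = 5), was not called (log2 fold change −0.19 ± 0.12, adjusted p = 0.213).

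Cul1, the scaffold for F-box adaptors, was at 65.2, 62.4, 65.3, 61.5 and 65.5 FPKM in ASO-Control and 55.9, 64.5, 49.9, 49.6 and 54.6 in Mettl3-ASO. Only Mettl3-ASO replicate 2 reached the control range, and the log2 fold change was −0.27 ± 0.11 (adjusted p = 0.0686; 0.0407 with the replicate block and 0.00996 without Mettl3-ASO replicate 2). Cul2 had −0.27 ± 0.12 (adjusted p = 0.0734; 0.0484 without ASO-Control replicate 1 and 0.0481 with no filter). Cul5, the most abundant cullin at 168 ± 18.8 and 148 ± 15.9 FPKM (SD, n = 5), had −0.22 ± 0.11 (adjusted p = 0.104; 0.0371 without Mettl3-ASO replicate 2). Cul7 and Cul9, large cullins of other complexes, were under the filter, Cul7 at 0.188 and 0.622 FPKM and Cul9 with 3 counts over all libraries.

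Of the Klhl adaptors 11 of 14 tested rose, from low levels, or 9 of 12 without Klhl25 and Klhl42, which passed the filter only through Mettl3-ASO. Klhl21, a Cul3 adaptor that acts on Aurora B in late mitosis, was at 2.73, 2.59, 1.91, 2.41 and 1.73 FPKM in ASO-Control and 11.6, 9.43, 3.94, 5.14 and 6.08 in Mettl3-ASO. The groups did not overlap, the untagged Mettl3-ASO libraries were the highest, and Klhl21 rose by 1.54 ± 0.19 (adjusted p = 4.97e-05). Exons of Gm9768 on the opposite strand cover 20.5% of Klhl21. Its partner in that task, Klhl9, was at 2.63, 2.03, 2.58, 2.47 and 1.91 FPKM in ASO-Control and 6.06, 3.62, 4.94, 6.72 and 5.83 in Mettl3-ASO. Again every Mettl3-ASO library was higher, and Klhl9 rose by 1.17 ± 0.18 (adjusted p = 2.28e-04), with 15.8% of its exon bases opposite Gm26566. The relative Klhl13 was under the filter, at 0.260 and 0.306 FPKM.

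Klhl10, a Cul3 adaptor needed in spermatids, was at 8.71, 8.65, 7.28, 14.3 and 12.4 FPKM in ASO-Control and 17.0, 26.3, 31.2, 34.5 and 28.4 in Mettl3-ASO. Its neighbour Klhl11 was at 0.78, 1.93, 0.99, 1.07 and 1.73 FPKM in ASO-Control and 4.26, 7.46, 3.95, 4.46 and 6.45 in Mettl3-ASO. Neither gene's groups overlapped, Klhl10 rose by 1.38 ± 0.21 (adjusted p = 1.76e-04) and Klhl11 by 1.98 ± 0.32 (adjusted p = 3.05e-04), and they did not share their order over libraries, since Mettl3-ASO replicate 4 was the highest for Klhl10 and replicate 2 for Klhl11. Klhl12, which makes large secretory carriers by marking Sec31, went from 7.56 ± 0.819 to 14.7 ± 1.56 FPKM (SD, n = 5) with no overlap (log2 fold change 0.92 ± 0.15, adjusted p = 2.89e-04).

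The other called Klhl genes were Klhl25, Klhl42, Klhl28, Klhl7, Klhl20 and Klhl15, with log2 fold changes of 1.45, 1.19, 1.07, 0.69, 0.67 and 0.48. Klhl25 and Klhl42 were under 1 FPKM on average in ASO-Control (0.524 and 0.722). For Klhl28 Mettl3-ASO replicate 1, at 4.90 FPKM, lay within the control range of 3.46 to 5.30, and the other 4 libraries reached 7.75 to 12.8. Klhl7 (adjusted p = 0.0229) lost its call without ASO-Control replicates 2 (0.0528) and 5 (0.0527) and Mettl3-ASO replicates 2 (0.0894) and 5 (0.072), each left out alone. Klhl20, which directs several kinases to Cul3, and Klhl15, an adaptor for a subunit of phosphatase PP2A, lost theirs with no filter (adjusted p = 0.0747 and 0.0895). Klhl2, Klhl22, which marks Plk1 in mitosis, and Klhl24 were tested and not called, with log2 fold changes of −0.11, −0.13 and 0.44. Klhl24 (adjusted p = 0.0635) was called without ASO-Control replicate 1 (0.021) or Mettl3-ASO replicate 1 (0.0194) and with upper-quartile scaling (0.0403). Leaving out any 1 library gave 10 to 12 called Klhl genes.

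F-box adaptors moved both ways, and the largest change in each direction was in the Fbxo class. Fbxo34 was at 4.86, 4.85, 3.58, 3.11 and 3.44 FPKM in ASO-Control and 19.2, 30.6, 19.1, 26.9 and 33.2 in Mettl3-ASO. The lowest Mettl3-ASO library was far above the highest control, and Fbxo34 rose by 2.64 ± 0.22 (adjusted p = 2.4e-06), with 17.4% of its windows found in other genes. Fbxo22, which marks the histone demethylase Kdm4a and the haem-binding repressor Bach1, was at 19.4, 16.0, 12.1, 15.3 and 12.7 FPKM in ASO-Control and 6.11, 4.05, 2.89, 2.48 and 2.33 in Mettl3-ASO. Every Mettl3-ASO library was lower than every control, and Fbxo22 fell by 2.20 ± 0.18 (adjusted p = 2.64e-06). Exons of Nrg4 on the opposite strand cover 15.4% of Fbxo22.

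Fbxo15, a target of Oct4 long used as a reporter of pluripotent cells, was the most abundant F-box gene, at 830.1, 975, 1108, 1746 and 1348 FPKM in ASO-Control and 1662, 2596, 1784, 2242 and 2268 in Mettl3-ASO. ASO-Control replicate 4 overlapped the Mettl3-ASO range, but within each batch every Mettl3-ASO library was higher, and Fbxo15 rose by 0.81 ± 0.19 (adjusted p = 0.00356). Fbxo36 was at 8.07 to 10.7 FPKM in ASO-Control and 21.8 to 32.2 in Mettl3-ASO and rose by 1.47 ± 0.21 (adjusted p = 1.09e-04). Fbxo42, which acts on p53, went from 1.27 ± 0.319 to 3.51 ± 0.928 FPKM (SD, n = 5) and rose by 1.43 ± 0.20 (adjusted p = 1.07e-04). The other Fbxo genes that rose were Fbxo47, Fbxo33, Fbxo30, Fbxo28, Fbxo45, Fbxo11 and Fbxo38, by 1.66, 1.55, 0.84, 0.71, 0.69, 0.62 and 0.50. Fbxo47, an adaptor known from meiosis, was at 0.716 FPKM on average in ASO-Control and 2.25 in Mettl3-ASO, and Mettl3-ASO replicate 1, at 0.91, lay within the control range. Fbxo45 (adjusted p = 0.0213) lost its call without ASO-Control replicates 3 (0.0594) and 4 (0.0562) and Mettl3-ASO replicates 2 (0.0639) and 5 (0.058), each left out alone, and Fbxo38 (adjusted p = 0.0186) without ASO-Control replicate 2 (0.055) and with no filter (0.0681).

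Besides Fbxo22, 3 Fbxo genes fell. Fbxo7, which acts in mitophagy with Parkin, was at 5.37, 5.83, 3.32, 3.92 and 2.97 FPKM in ASO-Control and 2.88, 2.46, 1.41, 2.28 and 1.40 in Mettl3-ASO. The lowest control was just above the highest Mettl3-ASO library, and Fbxo7 fell by 1.07 ± 0.23 (adjusted p = 0.00192). Fbxo8 fell by 0.62 ± 0.15 (adjusted p = 0.00423), with 9.42 to 10.9 FPKM in ASO-Control, 7.24 to 7.72 in 4 Mettl3-ASO libraries and 4.92 in replicate 5. Fbxo6, which recognizes sugar chains on misfolded glycoproteins, fell by 0.54 ± 0.17 (adjusted p = 0.0176). Fbxo5, or Emi1, which inhibits the anaphase-promoting complex, was at 79.8 ± 12.9 and 79.1 ± 15.4 FPKM (SD, n = 5), with a log2 fold change of −0.06 ± 0.15 (adjusted p = 0.768). Replicate 3 was the lowest library of both groups for Fbxo5, at 57.5 and 52.2 FPKM. Fbxo3 was not called (log2 fold change −0.39 ± 0.17, adjusted p = 0.0775; 0.0434 without Mettl3-ASO replicate 1). The inhibitor related to Emi1 that holds the egg in metaphase, Fbxo43, was under the filter, at 0.038 and 0.040 FPKM.

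Of the leucine-rich F-box genes, Fbxl5 and Fbxl4 rose. Fbxl5, the iron sensor that marks the iron regulatory protein Ireb2, was at 12.0, 12.2, 11.0, 14.4 and 11.5 FPKM in ASO-Control and 22.6, 32.8, 27.6, 27.2 and 22.9 in Mettl3-ASO. Its groups were well apart, and Fbxl5 rose by 1.12 ± 0.16 (adjusted p = 1.22e-04). Its substrate gene Ireb2, which lies on the Ube2q2 side of chromosome 9, was not called (log2 fold change 0.20 ± 0.18, adjusted p = 0.377). Fbxl4, a mitochondrial protein that restrains mitophagy, went from 2.88 ± 1.04 to 7.67 ± 1.91 FPKM (SD, n = 5) with no overlap (log2 fold change 1.32 ± 0.28, adjusted p = 0.00185). Fbxl20, the most abundant Fbxl gene at 30.9 ± 8.40 FPKM in ASO-Control (SD, n = 5), showed a log2 change of −0.19 ± 0.25 (adjusted p = 0.558). Fbxl6 had −0.59 ± 0.27 (adjusted p = 0.0825), with 11.8 FPKM in Mettl3-ASO replicate 1 and 2.47 to 3.54 in the rest of its group, and was called with the replicate block (0.0258) and without that library (0.009). Fbxl14, which acts on Snail proteins, was under the filter, at 0.736 and 1.03 FPKM.

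Neither call among the WD40 F-box genes was stable. Fbxw11, or beta-TrCP2, which marks beta-catenin and Cdc25a, was at 4.78, 6.04, 3.22, 3.98 and 3.31 FPKM in ASO-Control and 6.60, 6.48, 5.25, 6.53 and 21.8 in Mettl3-ASO. Replicate 5 of Mettl3-ASO was more than 3-fold above the rest of its group, and the log2 fold change of 1.09 ± 0.39 (adjusted p = 0.0333) was 0.49 without it (adjusted p = 0.0366). The Fbxw11 call was lost without ASO-Control replicate 1 (0.0513), 3 (0.0913), 4 (0.0765) or 5 (0.0893), and with limma on log2(FPKM + 1) (0.0565) or log2(FPKM + 0.1) (0.0506). Its close relative Btrc, from the list of receptors below, fell by 0.73 ± 0.17 (adjusted p = 0.00398). Fbxw2, an adaptor for the trophoblast factor Gcm1, fell by 0.38 ± 0.13 (adjusted p = 0.0299). Its call was lost in 7 of the 10 fits that leave out 1 library (adjusted p from 0.0554 to 0.0746; ASO-Control replicates 1, 2, 4 and 5 and Mettl3-ASO replicates 1, 3 and 4). It was also lost with upper-quartile scaling, both limma fits, no filter, a filter at 5 FPKM and no batch term (adjusted p from 0.0544 to 0.0993). Fbxw7, the receptor for cyclin E and Myc, was at 1.76 ± 0.591 and 1.35 ± 0.618 FPKM (SD, n = 5), with a log2 fold change of −0.39 ± 0.36 (adjusted p = 0.388), and Fbxw9 had −0.41 ± 0.20 (adjusted p = 0.101).

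Around the neighbouring members, other tested genes did not all share their direction. Of 4 genes on each side of Ube2q2 and Fbxo22, Wdr61 fell by 0.51 ± 0.10, Etfa by 0.50 ± 0.12 and Scaper by 1.11 ± 0.22, while Nrg4, which lies opposite the end of Fbxo22, rose by 1.88 ± 0.55 (adjusted p = 0.0122). Ireb2, AY074887, Psma4 and Isl2 were not called. On chromosome 11, Gast rose by 1.80 ± 0.53, P3h4 by 2.80 ± 0.46 and Ttc25 by 1.03 ± 0.25. Jup, Nt5c3b, Acly, Dnajc7 and Nkiras2 were not called, and Nt5c3b, which starts just before Klhl10 and runs the other way on the opposite strand, had a log2 fold change of −0.14 ± 0.18. These neighbours were taken by position after the member pairs had been found. In the remaining pair, on chromosome 4, Fbxo6 fell and Fbxo2 was not called (log2 fold change 0.59 ± 0.69, adjusted p = 0.497; 0.20 on the log2 scale without Mettl3-ASO replicate 1 and 1.33 without ASO-Control replicate 4).

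**Figure D3:**
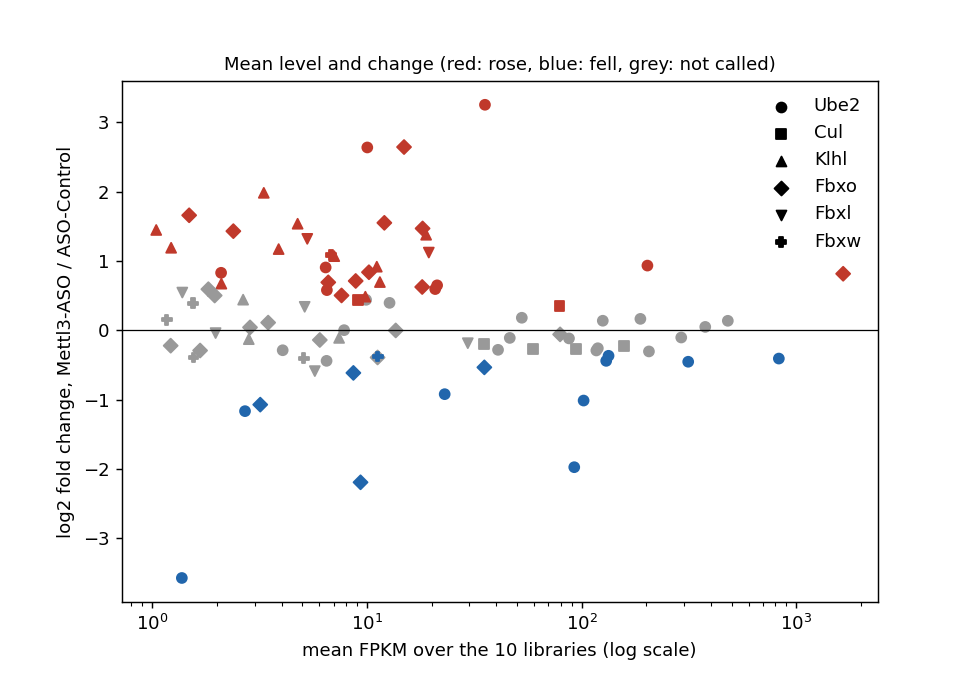
Log2 fold change of Mettl3-ASO over ASO-Control (y axis) against mean FPKM over the 10 libraries (x axis, log scale) for the 92 tested members, with a symbol for each family and red for rose, blue for fell and grey for not called. Of 16 members at 100 FPKM or more, 2 rose and 5 fell, and of 46 members under 10 FPKM, 19 rose and 5 fell.

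The share of members that rose was lowest among the most abundant ones, as it was among all tested genes. Of 46 members with a mean under 10 FPKM over the 10 libraries, 19 rose (41.3%, against 27.0% of 4957 tested genes in that range) and 5 fell (10.9%, against 16.9%). Of 30 members at 10 to 100 FPKM, 14 rose (46.7%, against 25.8% of 3250 genes) and 4 fell (13.3%, against 29.0%). Of 16 members at 100 FPKM or more, all E2s but Cul5 and Fbxo15, 2 rose (Ube2e3 and Fbxo15; 12.5%, against 18.3% of 1315 genes) and 5 fell (Ube2e1, Ube2c, Ube2d3, Ube2t and Ube2a; 31.2%, against 38.3%).

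The direction of the changes was compared between the separately labelled libraries. In the 6 batch 2 libraries alone, 30 members rose (20.2% of all tested genes did) and 9 fell (18.9%), where 39.0% of all tested genes were called. All 39 had the same sign in the 4 untagged libraries, a share of 100%, as did 99.2% of all genes called in batch 2. In the untagged libraries alone, 3 members rose (Fbxo34, Klhl21 and Ube2u, against 3.79% of all tested genes) and 2 fell (Fbxo22 and Ube2q2, against 2.47%), where 6.26% of all tested genes were called. Of the Klhl genes, 10 of 14 rose in batch 2 alone and 12 of 14 had a positive log2 fold change in both sets of libraries. A test of whether the change differed between batches called none of the members and none of all 9522 genes (edgeR, adjusted p under 0.05), and at an unadjusted p under 0.05 it held 0 members and 159 genes (1.67%). That test has few libraries to work with, and a p over the threshold does not show that the changes were alike.

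**Figure D4:**
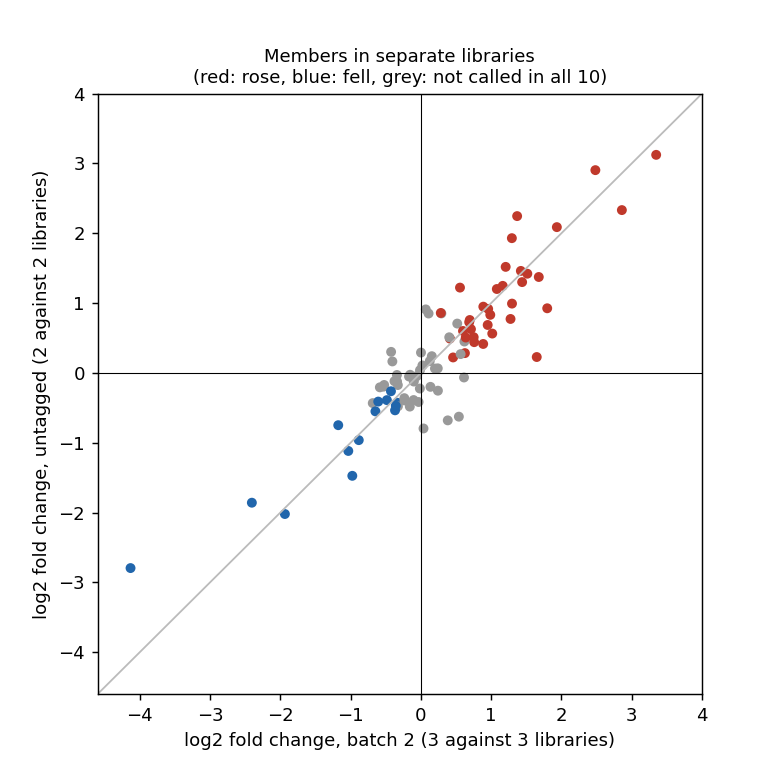
Log2 fold change in the 4 untagged libraries (y axis, 2 against 2) against that in the 6 batch 2 libraries (x axis, 3 against 3) for the 92 tested members, coloured by the call over all 10 libraries, with the diagonal as a grey line. The 35 red points (rose) lie above 0 on both axes and the 14 blue points (fell) below 0 on both.

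Partners of these enzymes outside the name rule were examined by lists, each read against the 49.4% of all tested genes that were called. Of 16 tested genes of ubiquitin, ubiquitin-like proteins, their E1s and the E2 Cdc34, 2 rose and 5 fell. Rps27a, which encodes ubiquitin fused to a ribosomal protein, fell by 0.84 ± 0.10, from 3288 to 1903 FPKM, and Nae1, a subunit of the Nedd8 E1, fell by 1.05 ± 0.14. Of the annotated 50-base windows of Rps27a, 26.3% occur in other genes. Of 8 core and adaptor genes of cullin ligases 1 rose and 3 fell, and Cdc34 is counted in both lists. Glmn, which blocks the E2 site of Rbx1, fell by 1.40 ± 0.16, with 22.2% of its windows found in other genes. Tceb1, or elongin C, rose by 0.88 ± 0.12 to 8239 FPKM. Cdc34, the E2 of F-box ligases, fell by 0.72 ± 0.23 (adjusted p = 0.0196; 0.0565 with no batch term and 0.0513 without ASO-Control replicate 1). Chosen after their values were seen, the Cul1 adaptor Skp1a (log2 fold change 0.23 ± 0.13, adjusted p = 0.162) and the Cul4 adaptor Ddb1 (−0.31 ± 0.14, adjusted p = 0.0756) were not called. With the replicate number as a block Ddb1 was called (adjusted p = 0.0223) and Skp1a was not (adjusted p = 0.0961).

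Of 17 genes of neddylation and its reversal 1 rose and 4 fell. Cand1, which swaps F-box proteins on Cul1, rose by 1.49 ± 0.12 (adjusted p = 1.93e-06), from 34.9 ± 5.33 to 101 ± 10.3 FPKM (SD, n = 5). The COP9 signalosome genes Cops3 and Cops7a fell from 138 ± 5.97 to 57.8 ± 7.90 and from 123 ± 25.9 to 58.5 ± 23.1 FPKM (SD, n = 5). Of 50 substrate receptors of other name families 24 rose and 10 fell, with a median log2 fold change of 0.33. Lrr1, the Cul2 receptor that unloads the replication helicase, rose from 313 ± 72.5 to 1043 ± 72.9 FPKM (SD, n = 5), the Cul2 receptor Pramel7 rose by 1.73 ± 0.17 and Socs3, a brake on cytokine signals, by 2.12 ± 0.25. Of 16 genes of the anaphase-promoting complex 3 rose and 6 fell, among them Anapc15 with a fall of 1.06 ± 0.11 and Anapc7 and Anapc10 with rises of 1.05 ± 0.17 and 0.56 ± 0.10. For Anapc15, 35.8% of the annotated 50-base windows occur in other genes. The HECT and RBR ligases, which take ubiquitin from the E2 onto themselves, split evenly, with 8 of 26 rising and 8 falling. Nedd4 fell by 1.85 ± 0.27, Huwe1 by 0.99 ± 0.17 and Rnf14 by 0.75 ± 0.13. Of 21 known substrates or targets 5 rose and 3 fell, with Rbm15, Myc and Mcl1 rising by 2.05 ± 0.25, 1.72 ± 0.21 and 1.04 ± 0.14. The 3 that fell were Ccnb2, Ccne2 and Nfe2l2, with log2 fold changes of −0.706, −0.8 and −0.545.

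The isoform-weighted transcript length that enters FPKM moved little. In none of the 92 tested members did it differ by 0.5 or more on the log2 scale. Its groups did not overlap in 5 members (Cul5, Fbxl4, Fbxl5, Klhl25 and Ube2m), or 5.43%, against 2.61% of all tested genes, with the largest log2 difference at −0.15 for Klhl25. Of the 68 members under the filter, 4 had no count in any library (Fbxo24, Klhl31, Klhl34 and Klhl38), and Fbxw8 came nearest to the filter with a mean of 0.93 FPKM. By family these were 23 Klhl, 16 Fbxw, 12 Fbxo, 12 Fbxl, 3 Ube2 and 2 Cul genes.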

How the data were processed

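Expression was measured in 10 libraries of polyadenylated RNA, made with the SMART-Seq v4 PLUS kit per the labels' protocols, and grouped by their titles. The authors deposited 1 gene table per library with expected counts, which are estimates that share out reads matching several genes, and with TPM and FPKM, which the authors scaled to library size and transcript length; TPM was not used. The deposited lengths are weighted by isoform (score). The submitters' processing notes name STAR 2.7.10, RSEM 1.3.3 and build mm10. Strand use and annotation release are not given in the sources used here. Reads of near copies and of overlapping genes are therefore uncertain.

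Expected counts were rounded and tested with edgeR 4.0.16 in R 4.3.3 (TMM scaling, batch and group terms, a mean of at least 1 FPKM over libraries, Benjamini-Hochberg over 9522 genes). Standard errors were taken as the log2 fold change, without its sign, over the square root of F. Alternatives used DESeq2 1.42.0, limma 3.58.1, other scalings, filters and terms, and each library left out. On simulated counts for the comparison of Mettl3-ASO with ASO-Control over 9522 genes, 28% of 1.5-fold and 88% of 2-fold changes were recovered. The simulation had a single dispersion of 0.05, no batch effect and 100 changed genes at each fold. In the data 4704 genes were called, so these rates need not hold for the real comparison. Replicate pairs differed beyond sampling noise (chi-square over its degrees of freedom at least 21.2 in 8 pairs), and all 10 libraries were kept. Library preparation can also add such differences, so this check cannot show that the libraries are independent. Fragments carry no molecular identifiers. After subtraction of group and batch means, libraries with the same number correlated at 0.336, 0.336, 0.212, 0.213 and 0.186 for replicates 1 to 5. Replicates 1 and 2 were the only untagged libraries of each group, so their values are equal by construction. The values of the batch 2 replicates also depend on each other. Correlations between libraries with different numbers were not computed, so there is no baseline for these values. The numbers were therefore treated as possible pairs, from these correlations and not from the labels. The reported calls and fold changes used batch and group terms and no pair term. The fit with the replicate number as a block, which uses the pairs, gave 36 rises and 19 falls.

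The members, lists, tests and alternatives were chosen with earlier results of these data known. Genes named by rule are the cullins, the 3 called rises and falls with the smallest p per family, the 3 most abundant members per family, members with a textbook role and the 3 called genes with the smallest p per list. Some genes that these rules select are not reported here. Other members given by name were chosen after their values were seen. Of the 160 members, 159 were matched to GENCODE vM21 for positions.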

Additional observations from a re-analysis of the deposited data

Results flagged for a closer look

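Single libraries of 17 among 184 groups of 5 (92 tested members in 2 groups) lay so far from the others that the gap to the nearest library exceeded 0.71 of the group's range. Chance flags about 1 in 20 groups when all 5 values come from a single normal distribution. Each group here mixes untagged and batch 2 libraries, so that rate need not hold. Of the 17, 7 concern Mettl3-ASO replicate 1 and 6 concern ASO-Control libraries. In Mettl3-ASO replicate 1, Fbxl6 was at 11.79 FPKM, and in the others of that group it was at 2.47 to 3.54. In the same library Ube2q1 was at 21.69 FPKM (others 8.13 to 10.28), Ube2r2 at 10.74 (3.70 to 5.27) and Ube2z at 11.52 (6.50 to 7.39). Fbxo2 was at 6.82 FPKM there (others 0.14 to 1.69) and Fbxw5 at 4.28 (0.81 to 1.52), while Klhl24 was low, at 2.46 (3.22 to 3.27).

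In the other Mettl3-ASO libraries, Fbxw11 was at 21.78 FPKM in replicate 5 (others 5.25 to 6.60) and Fbxo8 at 4.92 in replicate 5 (7.24 to 7.72). Fbxo5 was low in replicate 3 of both groups, at 52.2 FPKM in Mettl3-ASO (others 81.5 to 90.6) and 57.55 in ASO-Control (80.8 to 88.7). The other flagged ASO-Control values were Fbxo17 at 0.99 FPKM in replicate 3 (others 1.62 to 1.73), Klhl12 at 6.13 in replicate 3 (7.71 to 8.19), Klhl15 at 10.96 in replicate 2 (6.54 to 7.49), Klhl22 at 5.82 in replicate 1 (1.39 to 2.59) and Ube2r2 at 11.56 in replicate 1 (5.50 to 7.14).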

How the results depend on the processing

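No member changed direction past the threshold under any alternative run. The members that rose numbered 35 and the members that fell 14. The counts were 36 and 14 with DESeq2, 35 and 14 with median-ratio scaling, 37 and 13 with upper-quartile scaling, and 34 and 13 with limma at either pseudocount. They were 33 and 11 with no batch term, 37 and 15 with no filter, and 27 and 10 with a filter at 5 FPKM, which tests 66 members. The counts with no filter include members under the filter, so they cannot be set directly against 35 and 14. Among the 92 tested members that fit lost 6 calls (Cul3, Cul4a, Fbxo38, Fbxw2, Klhl15 and Klhl20) and gained 2 (Cul2 and Ube2v2). With the replicate block the counts were 36 and 19, adding Cul1, Fbxl6, Ube2q1, Ube2r2, Ube2v1 and Ube2v2, and the block changed no other call. In batch 2 alone they were 30 and 9, and 33 and 13 with the block. In the untagged libraries alone they were 3 and 2. Leaving out 1 library gave 32 to 37 rises and 12 to 17 falls. The cause of these moves was not tested, apart from the fewer genes or libraries that the filter and the subsets leave. Relative to the values reported, the median over all tested genes moved by −0.05 to 0.06 on the log2 scale. The fall of Mettl3 passed in each alternative. The 68 members under the filter were left out of every fit but the one with no filter. In simulated data, with far fewer changed genes than were called here, 28% of 1.5-fold changes were recovered. Depth was not varied there, and low counts limit the precision of Ube2e2, with 23 counts over the Mettl3-ASO libraries.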
